A study of Mus musculus with 8 samples.

Results

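Cytosolic ribosomal protein genes encode the protein part of the ribosomes that translate messenger RNA outside mitochondria. They were taken from the count table by symbol: Rpl or Rps with a number and at most a following letter and digit. Rplp0, Rplp1, Rplp2 and Rpsa were included by name, and pseudogene symbols with -ps did not match. This gave 88 of 46078 gene entries, 51 for the large (60S) subunit and 37 for the small (40S) subunit. Of the 88, 4 match by symbol but are annotated as pseudogenes in GENCODE M21: Rps4l, Rps3a2, Rps3a3 and Rps12l1. RNA came from hippocampus of C57BL/6J mice aged 9 weeks, with 4 libraries of wild-type animals (WT) and 4 of Cre+/- animals with the transgene Tg(Camk2a-cre)2Gsc, known as CamiCre and called Cre here. In that line regulatory DNA of Camk2a drives Cre recombinase in excitatory neurons of the forebrain. No floxed gene is named for either group, so the comparison asks what the Cre transgene alone goes with. The labels number the libraries but do not tie them to animals, so p-values measure the spread between libraries, which may be technical.

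Each ribosome carries a single copy of nearly all of these proteins, and cells keep their supply in balance, because unpaired ribosomal proteins are degraded. In mammals the genes are active in almost every cell, and their messages share a short pyrimidine tract at the 5′ end, the TOP motif, through which the mTORC1 kinase pathway controls their translation. In hippocampal neurons this control takes part in lasting synaptic plasticity, and phosphorylated Rps6 is widely used as a sign of neuronal activity. Free Rpl5 and Rpl11, joined with 5S ribosomal RNA, bind Mdm2 and so link faults in ribosome assembly to p53.

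Library totals ran from 21339996 to 27826871 counts, and 15859 genes had enough counts for the test. Levels are normalised CPM, counts scaled to library size, which are not corrected for transcript length. Markers of dentate granule neurons (8 genes), CA1 pyramidal neurons (7) and CA2 and CA3 pyramidal neurons (8) all passed the count filter, and none was at 0. WT replicate 1 stood apart in choroid plexus RNA, with 23719 counts of Ttr against 320 or fewer in each of the other 7 libraries. WT replicate 2 stood apart in markers of meninges and fibroblasts (8 of 8 measured), whose sum was 609 CPM there and 221 to 310.1 CPM in the other 7. In whole tissue, fewer cells of a type and less RNA per cell cannot be told apart.

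The starts of the genes are shown first because the TOP motif begins at the first transcribed base. RefSeq windows on GRCm38.p6 were found for 63 of the 88 genes. A tract was scored on the transcribed strand where a C and the C or T bases that follow it made a run of at least 5 bases, starting within 5 bases of the annotated start. It was present in 29 of 63 ribosomal protein genes (46.0%) and 5718 of all 27025 genes with such a window (21.2%). The first 6 sequences below belong to genes with such a tract, among them those with the highest fold changes and Rps6. The last 3 belong to genes without one at the annotated start. Other members differ from this display: Rps10 and Rps2, with fold changes below 0, have a tract, while Rpl23 and Rpl37a, above 0, have none. A relation of tract and fold change was not tested. Each runs 5′ to 3′ from 15 bases before the annotated start to 15 bases from it on, with the tract in capitals.
Rpl38: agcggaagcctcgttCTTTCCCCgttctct
Rplp2: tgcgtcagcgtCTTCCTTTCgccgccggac
Rpl34: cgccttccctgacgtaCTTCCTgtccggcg
Rpl35a: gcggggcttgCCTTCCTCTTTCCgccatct
Rps27: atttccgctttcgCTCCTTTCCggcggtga
Rps6: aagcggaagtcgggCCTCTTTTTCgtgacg
Rpl22: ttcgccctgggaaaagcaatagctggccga
Rplp0: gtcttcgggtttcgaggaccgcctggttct
Rpl41: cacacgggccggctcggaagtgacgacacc
They lie at chr11:114668565-114668594 (Rpl38, plus strand), chr7:141447636-141447665 (Rplp2, plus), chr3:130730384-130730413 (Rpl34, minus), chr16:33056467-33056496 (Rpl35a, plus), chr3:90213634-90213663 (Rps27, minus), chr4:86857353-86857382 (Rps6, minus), chr4:152325711-152325740 (Rpl22, plus), chr5:115559452-115559481 (Rplp0, plus) and chr10:128549154-128549183 (Rpl41, minus). An annotated start more than 5 bases away from the used one can hide a tract, so a missing tract does not show that the message lacks one.

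In the windows of 300 bases, from 250 before the start to 50 after it, 3 further motifs were searched on both strands. CCGGAAG, a core of GABP and other ETS factors, was found in 26 of 63 ribosomal protein genes (41.3%) and 2683 of all 27025 genes with such a window (9.93%). AAGATGG, a core of YY1 sites, was found in 10 of 63 ribosomal protein genes (15.9%) and 1967 of all 27025 genes with such a window (7.28%). TATAAA, the TATA box, was found in 7 of 63 ribosomal protein genes (11.1%) and 4234 of all 27025 genes with such a window (15.7%). The reverse complement of the first, CTTCCGG, opens with 5 pyrimidines, so the same bases can count for it and for the tract. These matches describe letters and not bound factors.

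The ribosomal protein genes had nearly equal levels in Cre and WT hippocampus. Of the 81 that were tested, 0 had an adjusted p under 0.05 in edgeR (quasi-likelihood, Benjamini-Hochberg over all 15859 genes), where 0.0315% of all genes passed (lowest adjusted p among the members = 0.999). DESeq2, limma voom and edgeR's exact test also called 0. At an unadjusted p under 0.05 there was 1, against 3.5% of all genes in either direction: 1 was higher in Cre (2.05% of all genes) and 0 were lower (1.45%). That gene was Rpl38, which also had an unadjusted p of 0.0264 in DESeq2 and 0.0262 in limma voom. In 0 of the 81 did the 4 Cre libraries lie wholly above the 4 WT libraries (1.29% of all genes) or wholly below them (1.03%).

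The differences were small on the log2 scale. The median over the 81 genes was 0.019, a level 1.33% higher in Cre, against 0.00036 over all genes tested. Fold changes lay above 0 in 60 of 81 members (74.1%), and in 50.2% of all genes. Among the 80 members with a mean of at least 1 CPM they ran from -0.029 to 0.16. The median SE was 0.050, against 0.074 over all genes. For 73 of the 81 genes the whole 95% confidence interval lay within 0.2 of 0, so that a level above 1.15-fold or below 0.871-fold of WT was outside it. The count of 60 was not stable to single libraries: it was 40 without Cre replicate 4, 42 without Cre replicate 3 and 77 without Cre replicate 1, with medians of -0.00036, 0.0017 and 0.049. The single gene at an unadjusted p under 0.05 became 5 genes without WT replicate 4 or Cre replicate 1, 2 without WT replicate 1 or Cre replicate 2, and 0 without any 1 of the other 4 libraries.

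**Figure D1:**
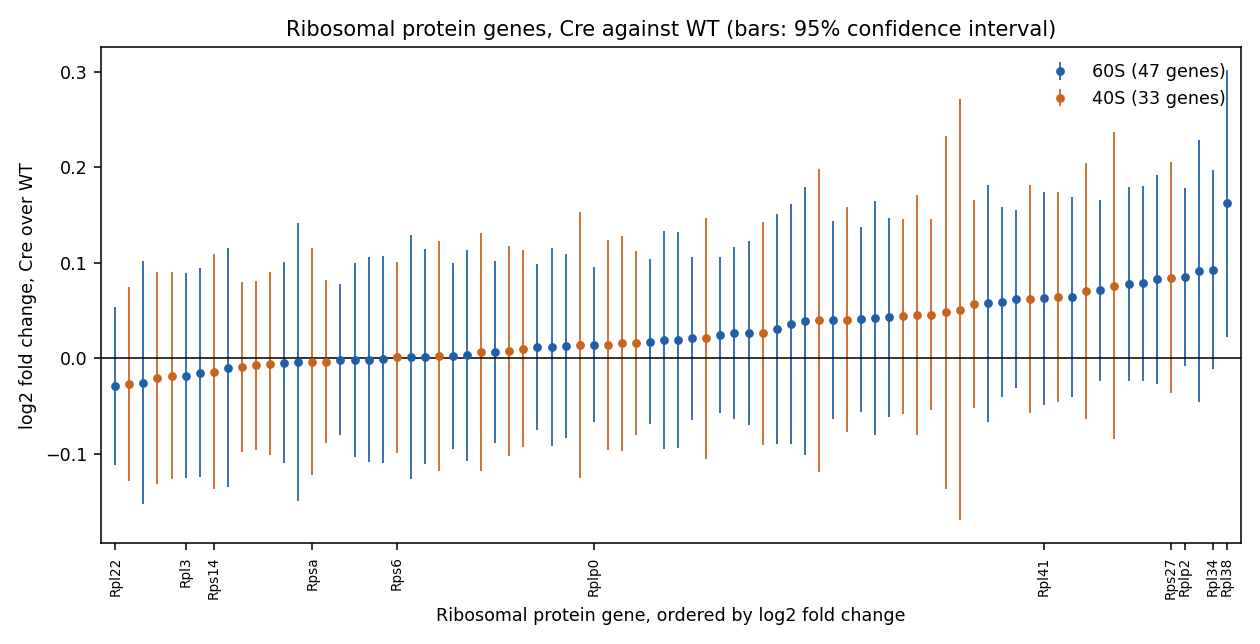
Log2 fold change of Cre over WT (vertical axis) for the 80 ribosomal protein genes with a mean of at least 1 CPM, ordered from lowest to highest, with 47 genes of the 60S subunit in blue and 33 of the 40S subunit in orange; bars are 95% confidence intervals from edgeR. The interval of Rpl38, at the right end, is the only one that does not cross 0.

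Rpl38, a small 60S protein that is mutated in the Tail-short mouse, had the largest fold change and the smallest p. It had 41.0, 39.8, 36.0 and 43.9 CPM in WT replicates 1 to 4 and 42.5, 42.7, 45.4 and 49.2 CPM in Cre replicates 1 to 4. The Cre libraries lay in the upper part of the range, but WT replicate 4 was above 2 of them. This gave a mean of 40.2 ± 3.28 CPM over WT and 44.9 ± 3.13 CPM over Cre libraries (SD, n = 4 each; log2 fold change 0.16, SE 0.064, 95% interval 1.57% to 23.3%). It did not pass over all genes (edgeR adjusted p = 0.999, unadjusted p = 0.0263), and the exact permutation test gave p = 0.0857 where the smallest possible is 0.0286. The unadjusted edgeR p exceeded 0.05 without WT replicate 2 (0.0558), WT replicate 3 (0.0946), Cre replicate 3 (0.0556) or Cre replicate 4 (0.0922). Its level is uncertain in another way, since 2 entries named as Rpl38 pseudogenes (-ps) held 571 counts, 6.71% of its own 8505. This was the largest such share of any member, counting only entries with -ps in the symbol.

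The stalk of the 60S subunit, which recruits the elongation factors, is built from Rplp0, Rplp1 and Rplp2. Rplp2 had 79.7, 73.4, 72.7 and 78.4 CPM in WT replicates 1 to 4 and 80.6, 77.8, 82.2 and 81.9 CPM in Cre replicates 1 to 4. WT replicates 1 and 4 lay inside the Cre range, and the exact permutation p was 0.0857 (log2 fold change 0.085, SE 0.043, edgeR adjusted p = 0.999). Rplp1, the other acidic stalk protein, had a mean of 267 ± 17.7 CPM over WT and 264 ± 12.4 CPM over Cre libraries (log2 fold change -0.015, SE 0.051). Rplp0, the base of the stalk, had 175 to 188 CPM in WT and 178 to 185 CPM in Cre (log2 fold change 0.014, SE 0.037, 95% interval -4.53% to 6.84%). The 3 stalk genes thus had fold changes on both sides of 0 and overlapping groups.

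**Figure D2:**
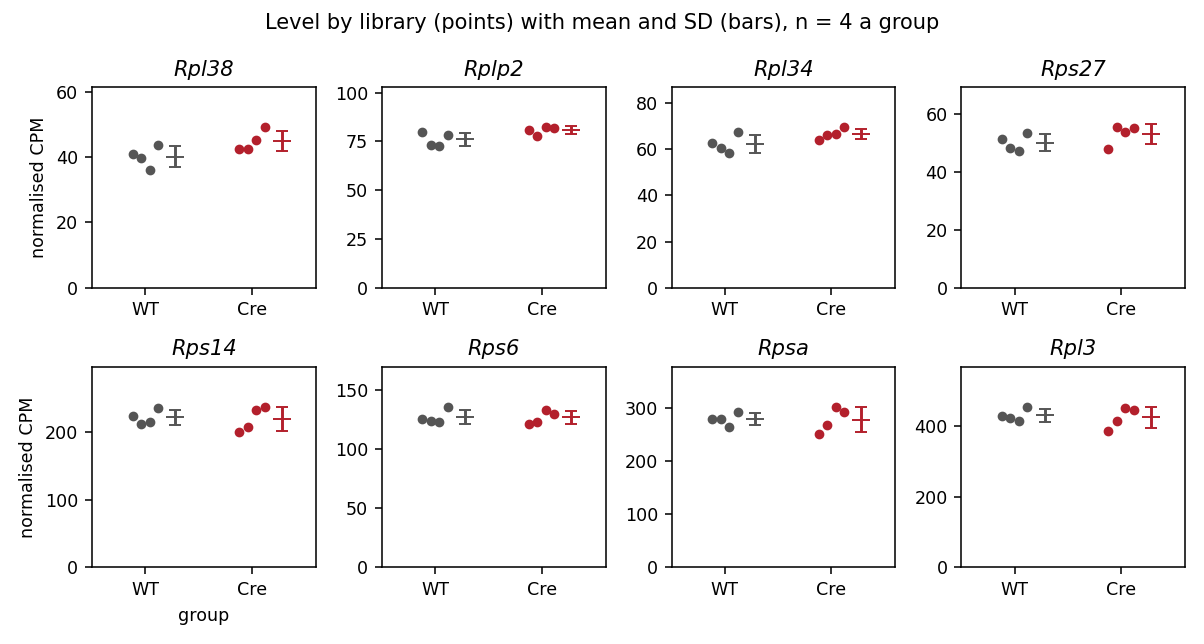
Normalised CPM (vertical axes, each from 0) of 8 ribosomal protein genes in the 4 WT libraries (grey) and the 4 Cre libraries (red); points are libraries and bars the mean with SD. The groups overlap in every panel, from Rpl38, with the largest fold change, to Rps14, Rps6, Rpsa and Rpl3, with means almost level.

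Rpl3 and Rpl4, large core proteins that reach towards the peptidyl transferase centre and the exit tunnel, had the highest CPM of all members. Rpl3 had 430.4, 423, 415 and 455 CPM in WT replicates 1 to 4 and 388, 415, 454 and 446 CPM in Cre replicates 1 to 4. The lowest value was that of Cre replicate 1 and the highest that of WT replicate 4 (log2 fold change -0.018, SE 0.049). Rpl4 had a mean of 399 ± 11.8 CPM over WT and 398 ± 26.8 CPM over Cre libraries (log2 fold change -0.0014, SE 0.047). Rpl5 and Rpl11, the partners of 5S RNA, were as even. Rpl5 had a mean of 170.0 ± 4.69 CPM over WT and 171 ± 11.1 CPM over Cre libraries (log2 fold change 0.012, SE 0.048). Rpl11 ran from 129 to 137 CPM over WT libraries and from 128 to 139 CPM over Cre libraries (log2 fold change 0.012, SE 0.040). Rpl10, which joins late in 60S maturation, had a mean of 140.3 ± 6.90 CPM over WT and 140.2 ± 7.80 CPM over Cre libraries (log2 fold change -0.00097, SE 0.050). For each of these 5 genes the difference between groups was smaller than the SD within either group.

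Further 60S members are taken in turn from the higher to the lower fold changes. Rpl34 had 62.8, 60.7, 58.6 and 67.6 CPM in WT replicates 1 to 4 and 64.1, 66.0, 66.6 and 69.5 CPM in Cre replicates 1 to 4. Only WT replicate 4 reached into the upper Cre range (log2 fold change 0.093, SE 0.048, 95% interval -0.799% to 14.6%). Rpl35a, mutated in some patients with Diamond-Blackfan anaemia, had a mean of 61.8 ± 1.89 CPM over WT and 65.8 ± 6.75 CPM over Cre libraries (log2 fold change 0.091, SE 0.063), with Cre replicate 1 the lowest of all 8 libraries at 57.4 CPM. Rpl23a and Rpl23, named after their values were seen, had log2 fold changes of 0.083 (SE 0.050) and 0.078 (SE 0.047). Rpl37a had a mean of 77.8 ± 3.42 CPM over WT and 82.0 ± 3.91 CPM over Cre libraries (log2 fold change 0.078, SE 0.047). Rpl41, the shortest member with a coding length of 75 bases, had a mean of 112 ± 7.93 CPM over WT and 117 ± 3.79 CPM over Cre libraries (log2 fold change 0.063, SE 0.052). Rpl39, a protein of the exit tunnel wall with a coding length of only 153 bases, had a mean of 20.7 ± 1.61 CPM over WT and 20.6 ± 1.16 CPM over Cre libraries (log2 fold change -0.0040, SE 0.067). Over the 47 tested 60S genes, 36 lay above 0, 0 passed by edgeR with 1 at an unadjusted p under 0.05, and the median was 0.021.

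Of the 34 tested 40S genes, 24 lay above 0 with a median of 0.015, and 0 passed by edgeR, with 0 at an unadjusted p under 0.05. Rps14 is of interest for its place: it ends 147 kb before Camk2a on chromosome 18 (GRCm38, 60747098 to 60778546, plus strand), on the side of Arsi, one of the Camk2a neighbours that differ between these groups. Its protein sits at the decoding face of the 40S subunit, and loss of a gene copy underlies the anaemia of the 5q- syndrome in people. Rps14 had 224, 211, 215 and 235 CPM in WT replicates 1 to 4 and 199.9, 207, 232 and 237 CPM in Cre replicates 1 to 4. Cre replicates 1 and 2 were the lowest of all libraries and Cre replicate 4 the highest, so the groups overlapped fully (log2 fold change -0.014, SE 0.057). The 95% interval of the difference ran from -9.05% to 7.85%, and the exact permutation p was 0.800. Arsi itself was higher in Cre, at 11.2 ± 3.30 CPM against 1.06 ± 0.234 CPM (log2 fold change 3.38, edgeR adjusted p = 1.33e-05). The other member on this chromosome, Rpl17, had a mean of 153 ± 5.54 CPM over WT and 158 ± 9.52 CPM over Cre libraries (log2 fold change 0.043, SE 0.048), and its pseudogene entries held 3.66% as many counts as the gene.

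Rps6, the substrate of the S6 kinases, had 125, 124, 123 and 136 CPM in WT replicates 1 to 4 and 122, 123, 133 and 129.9 CPM in Cre replicates 1 to 4. WT replicate 4 was high and the other 3 WT libraries lay close together, while the group means differed by less than their SD (log2 fold change 0.00092, SE 0.046, 95% interval -6.65% to 7.26%). Rpsa, the precursor of the laminin receptor, had 279, 279, 264 and 292 CPM in WT replicates 1 to 4 and 251, 268, 301 and 291 CPM in Cre replicates 1 to 4. Both the lowest and the highest library belonged to Cre (log2 fold change -0.0034, SE 0.055). Rps3, at the entry of the mRNA channel, had a mean of 219 ± 6.83 CPM over WT and 221 ± 12.3 CPM over Cre libraries (log2 fold change 0.016, SE 0.044). Rps19, the gene most often mutated in Diamond-Blackfan anaemia, had a mean of 83.4 ± 5.17 CPM over WT and 84.1 ± 7.59 CPM over Cre libraries (log2 fold change 0.014, SE 0.064). Rps27a, made as a fusion with ubiquitin, had a mean of 115 ± 4.47 CPM over WT and 115 ± 7.44 CPM over Cre libraries (log2 fold change 0.0077, SE 0.051).

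Rps27, a zinc finger protein of the 40S subunit, had the highest fold change of the 40S genes, with a mean of 49.9 ± 2.88 CPM over WT and 52.9 ± 3.48 CPM over Cre libraries (log2 fold change 0.084, SE 0.056). Cre replicate 1, at 47.9 CPM, lay among the WT libraries. Rps10, near the other end, had a mean of 97.0 ± 3.73 CPM over WT and 95.7 ± 6.15 CPM over Cre libraries (log2 fold change -0.020, SE 0.051). For Rps10 the annotated gene RPS10-NUDT3 shares 53.5% of its mRNA on the same strand, so its level is uncertain. Rps2, the 40S gene with the highest CPM, had a mean of 320.4 ± 10.6 CPM over WT and 318 ± 14.8 CPM over Cre libraries (log2 fold change -0.0090, SE 0.041). The most variable members within groups, at 1 CPM or more, were Rps29 (SD 0.13 on the log2 CPM scale) and Rps4l (0.15), against a median of 0.076 over the 80 members.

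Some ribosomal proteins have a second gene, a paralogue, used in certain tissues. The share of the paralogue in the pair was computed from CPM per kilobase of mRNA. Rpl22l1, which can replace the RNA-binding protein Rpl22, made up 24.3 ± 0.743% of the pair in WT and 24.5 ± 1.55% in Cre (SD, n = 4 each). Rpl22 itself had the lowest fold change of the members at 1 CPM or more, with a mean of 89.7 ± 2.74 CPM over WT and 87.9 ± 1.06 CPM over Cre libraries (log2 fold change -0.029, SE 0.038), and Rpl22l1 had a mean of 33.6 ± 1.48 CPM over WT and 33.3 ± 2.40 CPM over Cre libraries (log2 fold change -0.0098, SE 0.058). Rps27l, a p53 target gene, made up 8.09 ± 1.01% beside Rps27 in WT and 7.91 ± 0.368% in Cre, with a mean of 6.34 ± 0.642 CPM over WT and 6.57 ± 0.255 CPM over Cre libraries (log2 fold change 0.051, SE 0.10). Rpl7l1 had a mean of 39.6 ± 1.16 CPM over WT and 39.6 ± 2.51 CPM over Cre libraries (log2 fold change 0.0032, SE 0.051), 9.50% and 9.37% of the pair with Rpl7. Its share may be too low, since its annotated mRNA is 2606 bases long for a coding length of 738. The shares of these 3 paralogues differed between the groups by less than their SD.

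Paralogues of muscle and testis were near 0 in this tissue. Rpl10l, a testis gene, had 0 counts in all 8 libraries, which allows up to 0.107 to 0.142 CPM in a library, the level of 3 counts (counting error only). Rpl39l, also known from testis, had 6 counts over 8 libraries, and Rpl3l, the muscle form of Rpl3, had 56. Rps4l and Rps3a2, which were tested, and Rps3a3 and Rps12l1, which were not, are annotated as pseudogenes in GENCODE M21. Rps4l had a mean of 26.5 ± 2.52 CPM over WT and 27.3 ± 3.13 CPM over Cre libraries (log2 fold change 0.048, SE 0.085) and Rps3a2 had a mean of 0.673 ± 0.266 CPM over WT and 0.636 ± 0.266 CPM over Cre libraries (log2 fold change -0.12, SE 0.37), and reads of the near-identical parents Rps4x and Rps3a1 could be counted there, so both are uncertain. In all, 3 members (Rpl24, Rpl13a and Rps10) shared over 50% of their mRNA with another annotated gene on the same strand, and 12 were overlapped by a gene on the opposite strand. The 7 members without enough counts for the test were Rpl10l and Rps12l2 with 0 counts, Rps12l1 with 2, Rpl39l, Rps3a3 with 25, Rpl3l and Rpl24 with 77. Rpl24 encodes a constitutive 60S protein, and its low count goes with an annotated gene, Gm28037, that shares 71.5% of its mRNA on the same strand and had 0 counts itself.

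Per kilobase of mRNA the members spanned a wide range although ribosomes hold them in nearly equal numbers. The highest levels were those of Rplp1 (532 CPM per kilobase, mean of 8 libraries), Rps15 (375), Rps14 (368), Rps2 (320.0) and Rpl13 (318). The median of the 80 members was 154 CPM per kilobase. At the low end stood Rps27l (12.9), Rpl7l1 (15.2), Rps20 (16.5), Rps15a (20.3) and Rpl39 (33.7). For Rps20 and Rps15a the annotated principal mRNA is 3706 and 5130 bases long for coding lengths of 357 and 390 bases, so their values may be too low. The same holds for Rpl7l1, with 2606 bases for a coding length of 738. How reads shared with the many processed pseudogenes were treated is not given in the sources used here. The table held 259 entries named as pseudogenes of 58 members, of which 127 had a count, together 0.327% of the members' 2120699 counts. Pseudogenes without -ps in the symbol are not in that share, such as Rps4l, which held 5386 counts beside 34950 of Rps4x.

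The ribosomal protein genes varied together from library to library. Their summed level was 10688, 10246, 10185 and 10999 CPM in WT replicates 1 to 4 and 9977, 10387, 11152 and 11132 CPM in Cre replicates 1 to 4. Cre held both the lowest library (replicate 1) and the highest (replicate 3), and every WT value lay between them. As a share of all counts, members took 1.05 ± 0.0348% over WT and 1.07 ± 0.0567% over Cre libraries (SD, n = 4 each). The ratio of 60S to 40S counts was steadier, from 1.59 to 1.61 over WT libraries and from 1.59 to 1.63 over Cre libraries. Of the 80 members at 1 CPM or more, 42 had their lowest value in Cre replicate 1, 20 in WT replicate 3 and 11 in WT replicate 2. The highest value fell in Cre replicate 4 for 34, in Cre replicate 3 for 31 and in WT replicate 4 for 12. The median member stood -0.075 from its own mean over 8 libraries in Cre replicate 1 and 0.073 in Cre replicate 3 on the log2 scale. Both distances exceed the median log2 fold change between the groups. They are the extremes of 8 single libraries, however, while the fold change compares groups of 4, so the sizes are not alike in kind.

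**Figure D3:**
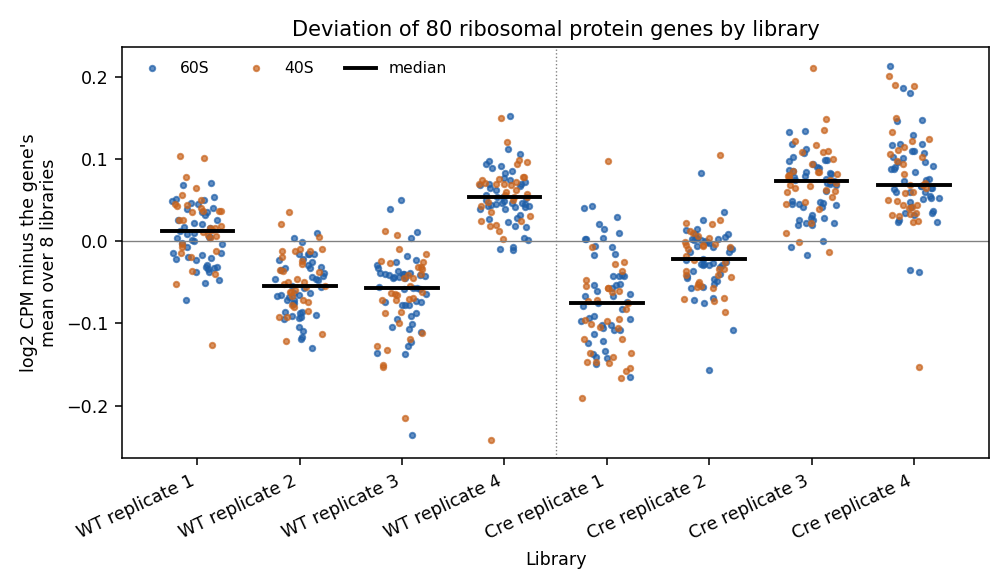
Deviation of each of 80 ribosomal protein genes from its own mean over the 8 libraries (vertical axis, log2 CPM), by library, for 60S genes (blue) and 40S genes (orange); black bars are medians. Medians run from -0.075 in Cre replicate 1 to 0.073 in Cre replicate 3, and both subunits shift together within a library.

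Markers of glia and the mitochondrial share also differed between these libraries. Summed microglia markers (13 of 13 measured, all above 0 in fold change) ran from 419.9 to 455 CPM in WT and 461 to 615 CPM in Cre. They were highest in Cre replicate 1. Summed astrocyte markers (12, of which 11 above 0) ran from 5413 to 5800 CPM in WT and 5816 to 6477 CPM in Cre, again highest in Cre replicate 1. Oligodendrocyte markers (12, all above 0) ran from 4124 to 4574 CPM in WT and 4135 to 5311 CPM in Cre. They were highest in Cre replicate 1 and, within Cre, lowest in replicate 4. In each of the 3 lists 0 genes passed the edgeR threshold. At an unadjusted edgeR p under 0.05, 7 microglia, 4 astrocyte and 2 oligodendrocyte genes were higher in Cre and 0 were lower. Of all genes tested, 50.2% lay above 0, and 2.05% were higher and 1.45% lower at that p. The share of counts from the mitochondrial genome was 3.03% in Cre replicate 1, the lowest of all, and 3.74% in Cre replicate 3, the highest. For microglia and astrocytes all 4 Cre sums lay above all 4 WT sums. Marker by marker, this held for 4 of 13 microglia and 2 of 12 astrocyte genes, against 1.29% of all genes. Slc1a2 alone had a mean of 2974 CPM over WT and 3210 CPM over Cre libraries, in astrocyte sums with means of 5589 and 6076 CPM. None of the markers in these 3 lists was at 0. Their part in the levels of the ribosomal protein genes was not tested. Without Cre replicate 1 the median log2 fold change of the members was 0.049, with 0 past the edgeR threshold and 5 at an unadjusted p under 0.05, and without WT replicate 1, which held the choroid plexus RNA, it was 0.030, with 0 and 2. Without WT replicate 2, which was highest in meningeal markers and low in ribosomal protein genes, it was 0.0091, with 0 and 0.

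Fold changes of the members went with their length. The members at 1 CPM or more with an annotated coding sequence were split by coding length into 26, 26 and 27 genes. Those of 75 to 396 bases had a median log2 fold change of 0.054, with 19 of 26 above 0. Among them were Rpl38, Rpl34, Rplp2 and Rps27, and also Rpl22, the lowest member at 1 CPM or more (-0.029). Those of 399 to 564 bases had a median of 0.026, with 22 of 26 above 0. Those of 576 to 1257 bases, among them Rpl3, Rpl4 and Rpsa, had 0.0032, with 18 of 27 above 0. The medians thus fell with length, while the share above 0 was largest in the middle group. As a description across 79 genes, which share the same libraries and are not independent, Spearman's rho of fold change with coding length was -0.45, and it lay between -0.58 and -0.31 when any 1 library was left out. The medians themselves depended on single libraries. That of the shortest genes was 0.019 without Cre replicate 4, 0.029 without WT replicate 3, 0.035 without WT replicate 2 and 0.081 without Cre replicate 1. That of the longest genes ran from -0.023 without Cre replicate 3 to 0.036 without Cre replicate 1, and was also below 0 without WT replicate 3 or Cre replicate 4. Genes outside the family showed the same order. The 458 other tested genes with an mRNA under 600 bases had a median of 0.041, against 0.045 for the 26 members of that size. For mRNAs of 600 bases or more but under 1000 the medians were 0.011 for 867 other genes and 0.021 for 35 members, and the 4332 other genes of 4000 bases or more had -0.010. The part of length in the fold changes of the members was not tested.

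**Figure D4:**
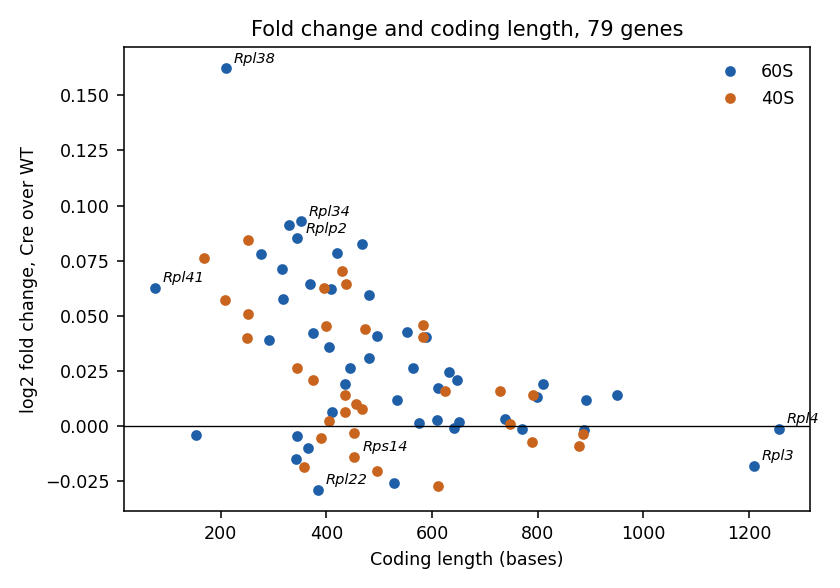
Log2 fold change of Cre over WT (vertical axis) against coding length in bases (horizontal axis) for 79 ribosomal protein genes at 1 CPM or more, 60S in blue and 40S in orange. Values above 0.05 all belong to genes with a coding length of at most 480 bases, with Rpl38 highest, and the long genes Rpl3 and Rpl4 lie at or just below 0.

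Other genes of the translation pathway were compared as lists. Beside them, 50.2% of all genes tested lay above 0 and 3.5% had an unadjusted edgeR p under 0.05. Proteins of the ribosome outside the naming rule include Fau, made as a fusion with a ubiquitin-like sequence, and Rack1, listed under its older symbol Gnb2l1. They had 83.3 ± 3.19 and 85.6 ± 3.70 CPM (Fau, WT and Cre) and 131 ± 4.18 and 129.9 ± 6.93 CPM (Gnb2l1), with overlapping groups in each. Of 38 initiation factor genes, 14 lay above 0 (median -0.014), 0 passed by edgeR and 1 had an unadjusted p under 0.05. That was Eif2s3x, the gamma subunit of eIF2, with a mean of 53.5 ± 1.93 CPM over WT and 50.2 ± 1.82 CPM over Cre libraries (log2 fold change -0.094, SE 0.043). Of 12 elongation and termination genes, 6 lay above 0 (median 0.0038), 0 passed and 1 had an unadjusted p under 0.05, Tpt1, itself a TOP message, with a mean of 244 ± 10.6 CPM over WT and 259.7 ± 5.11 CPM over Cre libraries (log2 fold change 0.089, SE 0.039). Naca, a nascent chain chaperone with a TOP message, had a mean of 114 ± 4.32 CPM over WT and 120.0 ± 7.22 CPM over Cre libraries (log2 fold change 0.076, SE 0.049) in a list of 17 where 13 lay above 0 and 0 passed, with 0 at an unadjusted p under 0.05.

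Among 53 ribosome biogenesis genes, 34 lay above 0 (median 0.013) and 0 passed by edgeR, with 2 higher and 2 lower at an unadjusted p under 0.05. The shares over all genes tested were 50.2% above 0, 2.05% higher and 1.45% lower, or 3.5% in either direction. Bop1, a 60S assembly factor, had a mean of 61.2 ± 1.30 CPM over WT and 57.8 ± 0.563 CPM over Cre libraries (log2 fold change -0.084, SE 0.036), and Bysl, a 40S assembly factor, had a mean of 30.4 ± 0.456 CPM over WT and 32.5 ± 0.313 CPM over Cre libraries (log2 fold change 0.096, SE 0.042). Of 18 genes for RNA polymerase I and its factors, 9 lay above 0, 0 passed and 1 had an unadjusted p under 0.05, Polr1a, the largest subunit, with a mean of 41.9 ± 1.11 CPM over WT and 39.1 ± 1.42 CPM over Cre libraries (log2 fold change -0.10, SE 0.044). In the mTORC1 and S6 kinase list, 20 of 34 lay above 0 and 0 passed. Its smallest p was that of Rps6kb2, an S6 kinase, with a mean of 22.2 ± 1.33 CPM over WT and 24.7 ± 1.16 CPM over Cre libraries (log2 fold change 0.15, SE 0.059), the only one of the 34 at an unadjusted p under 0.05. Of 9 tested genes around the 5S particle and p53, 7 lay above 0 (median 0.042) and 0 passed, with 0 at an unadjusted p under 0.05. Mdm2, the ubiquitin ligase bound by Rpl5 and Rpl11, had a mean of 49.1 ± 1.53 CPM over WT and 52.7 ± 3.03 CPM over Cre libraries (log2 fold change 0.10, SE 0.047).

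Mitochondrial ribosomes and the respiratory chain were taken for comparison, as families of many small proteins. Over all genes tested, 50.2% lay above 0 and 3.5% had an unadjusted edgeR p under 0.05. Of 76 tested genes for mitochondrial ribosomal proteins, 37 lay above 0 (median -0.0029), 0 passed by edgeR and 1 had an unadjusted p under 0.05, Mrpl37, with a mean of 39.6 ± 0.692 CPM over WT and 37.0 ± 1.51 CPM over Cre libraries (log2 fold change -0.099, SE 0.044). Of 79 nuclear genes of the respiratory chain, 31 lay above 0 (median -0.017), 0 passed and 2 had an unadjusted p under 0.05, Uqcrc1 and Uqcrc2, core subunits of complex III. Their summed levels were 1827, 1778, 1768 and 1854 CPM in WT and 1744, 1802, 1836 and 1822 CPM in Cre for the mitochondrial ribosome, and 8164, 7786, 7776 and 8275 CPM in WT and 7540, 7817, 8084 and 7957 CPM in Cre for the respiratory chain, each in the order of replicates 1 to 4. Both sums were lowest in Cre replicate 1 and highest in WT replicate 4.

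**Figure D5:**
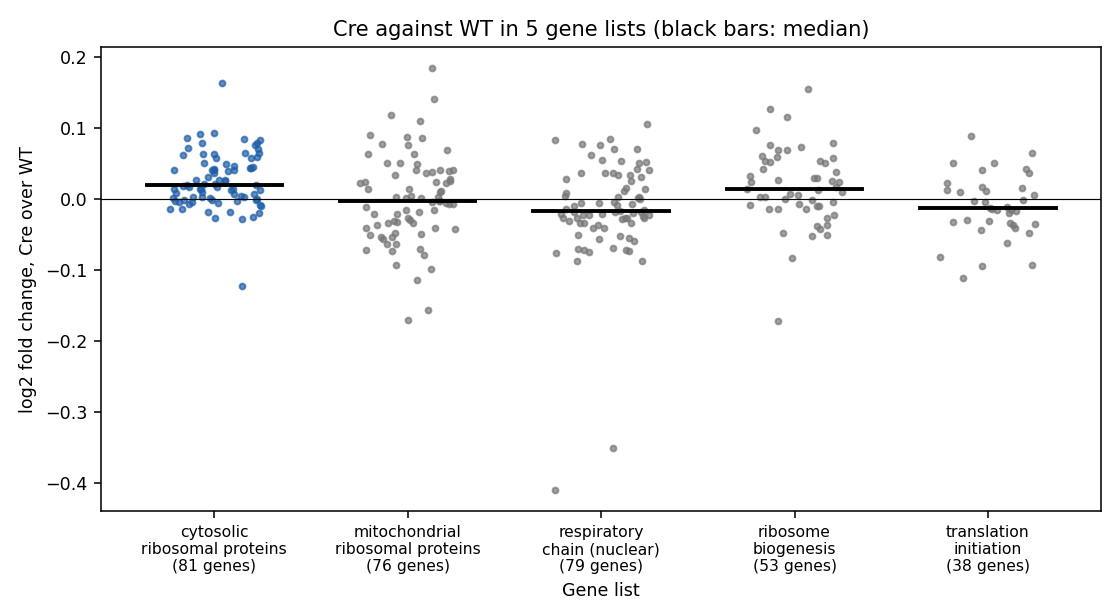
Log2 fold change of Cre over WT (vertical axis) for single genes (points) in 5 gene lists, with medians as black bars. The cytosolic ribosomal protein genes (blue, 81 genes) have a median of 0.019. Medians of the other 4 lists (grey) run from -0.017 to 0.013. Lists of the translation pathway that are not drawn had medians from -0.0040 (RNA polymerase I) to 0.042 (5S particle and p53).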

How the data were processed

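Hippocampal poly(A) RNA of 4 WT and 4 Cre libraries was sequenced as paired ends with a directional kit, per the labels' protocols. The authors deposited raw counts, whole numbers for each gene symbol in each library. STAR 2.6.1d, featureCounts, edgeR and GRCm38 are named, per the submitters' processing notes. Neither the strand setting nor the handling of multi-mapped reads was stated, so reads of overlapping genes, and of parents and pseudogenes, cannot be assigned with certainty. All entries named a gene. The median SE of 0.074 (log2) holds both counting error and the spread between libraries.

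The edgeR filter filterByExpr (at least 10 counts, 15 in total) was applied, and genes were scaled by TMM and tested with edgeR 4.0.16 (quasi-likelihood, 2-sided, R 4.3.3) with Benjamini-Hochberg adjustment over all genes, threshold 0.05. Single genes also had an exact permutation test on log2 CPM (prior count 2). The script was tested on simulated data. Alternatives were other scalings, filters, DESeq2 1.42.0, limma 3.58.1 (voom), the edgeR exact test, a replicate block and leaving out each library. Positions and mRNA lengths are from GENCODE M21 (principal mRNA, best supported, then shortest). The authors' own comparison was not used. Members and lists were chosen with earlier results of these data known. Named members, by rule, are those with a role explained in the text, paralogues, and the extremes by fold, p, level and spread, and the 2 genes of smallest p in a list. Some of these are not reported here.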

Additional observations from a re-analysis of the deposited data

Results flagged for a closer look

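Rps6 in WT replicate 4 stood away from its group, at 136 CPM against 123 to 125 CPM in the other 3 WT libraries. The gap to the nearest library filled more of the group's range than Dixon's 95% limit allows. This was 1 of 72 groups looked at this way (32 named genes and 4 shares or ratios, in WT and in Cre), and chance alone flags about 1 in 20. Without this library the log2 fold change was 0.034.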

How the results depend on the processing

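Under all 17 alternatives 0 ribosomal protein genes passed the adjusted threshold, with 0 to 5 at an unadjusted p under 0.05, and the lowest adjusted p of any member was 0.891 (no filter on low counts). Leaving out 1 library moved the median log2 fold change between -0.00036 (without Cre replicate 4) and 0.049 (without Cre replicate 1). The 9 other alternatives gave 0.016 to 0.025. The members' mean level had an SD of 0.063 between libraries. That is a spread of single libraries and not of differences between groups, so it is no yardstick for these medians. The number of members above 0 was 69 with library totals and 55 with no filter. Signs of single named members near 0 carry no direction: 63 of 543 values over the alternatives had the opposite sign, in 21 of 32 named members, each within 1 SE of 0. Deviations of same-numbered WT and Cre libraries had correlations of 0.203, -0.114, 0.0199 and 0.0212. Of the same-numbered libraries, only those numbered 1 were each other's best match. WT replicate 2 and Cre replicate 4 also matched each other best, as did WT replicate 4 and Cre replicate 3. The labels do not say whether the numbers pair the libraries, and low correlations cannot exclude it. With a replicate block, chosen as an alternative, 0 members passed, 58 lay above 0 and the median was 0.017. The relation with mRNA length, looked at after seeing the data, kept a negative sign in all fits (rho -0.44 to -0.26 without 1 library).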
